A study of Homo sapiens with 4 samples.

Results

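The 2 arrays of a CD133 sort were set against the 2 arrays of an ALDH sort, both made from the Huh7 line. All 4 arrays of the series entered this comparison, and it ran over 18377 genes, each read from a probe with exactly 1 gene symbol. For each gene the difference is the mean log2 value of the CD133+ and CD133- arrays minus the mean of the ALDH+ and ALDH- arrays, so a positive value means a higher level in the CD133 sort. Each side holds 1 marker-positive and 1 marker-negative fraction, and exchanging the positive and negative label within a sort would leave every such difference as it is. The question is what separates cells taken through one sort from cells taken through the other, whatever their marker status.

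Huh7 is an established human hepatocellular carcinoma line, grown here as one line with no other treatment or genotype in the labels. Cells were separated by flow cytometry into CD133+ and CD133- fractions and into ALDH+ and ALDH- fractions. Total RNA of each fraction was read on 1 Affymetrix Human Gene ST array. How the stain or enzyme assay was done, where the gates lay, and whether fractions shared a culture or a day are not given in the sources used here. The stain, the assay, the culture, the time in suspension and the array batch therefore cannot be told apart from the sort. The spread behind every test is the difference between the positive and the negative array of one sort. These are unlike fractions and not replicates, and the precision of every value is limited by the number of arrays.

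CD133, the product of PROM1, is a glycoprotein of membrane protrusions that is usually detected by an antibody on the cell surface. Aldehyde dehydrogenases (ALDH) oxidise aldehydes, and their activity in living cells is usually read from a fluorescent substrate that the cells take up and convert. Detaching, incubating and sorting cells takes time, and a few gene programmes are known to respond within that time: immediate early genes, which are transcribed from factors already present in the cell, and heat shock and metal-response genes. Cell-cycle genes, by contrast, read the share of cells in each phase. In bulk RNA, fewer cells of a kind and less RNA per cell cannot be told apart.

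No gene differed between the sorts by limma after Benjamini-Hochberg adjustment over the 18377 genes. The lowest adjusted p was 0.469. At an unadjusted p under 0.05, limma listed 1656 genes (9.01%), of which 1091 (5.94%) lay higher in the CD133 sort. The other 565 (3.07%) were the ones higher in the ALDH sort. With each array centred on its median this split was 1407 against 351. An exact permutation of 2 against 2 arrays cannot go below p = 0.333. What follows is therefore a description of size and of overlap between arrays, and no gene below passed the test. Gene lists were not tested as lists.

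A gene was taken as above the floor where its brighter sort had a mean of at least 4.98, which is the median over the whole table. Of the 11597 such genes, 6728 (58%) were higher in the CD133 sort, against 8878 of all 18377 (48.3%). The middle 95% of their differences ran from -0.49 to 0.64, and 1.5-fold was passed by 435 genes higher in the CD133 sort (3.75%) and 152 higher in the ALDH sort (1.31%). A mean difference of 2-fold or more was seen in 15 genes higher in the CD133 sort (0.129%) and in 12 higher in the ALDH sort (0.103%). These counts were 8 and 15 after cyclic loess, 8 and 14 after a second quantile normalization, and 27 and 11 after centring. A stricter description asks for a gap, with both arrays of one sort at least 1.5-fold above both arrays of the other. It held for 84 genes in the CD133 sort's favour (0.724%) and for 14 in the ALDH sort's (0.121%), and for 54 and 17 after cyclic loess. With a gap of 2-fold it held for ZNF724 and ORM2 on the CD133 side (2 genes, 0.0172%) and for SNORA80E, FOSB and ATF3 on the ALDH side (3 genes, 0.0259%). Any gap at all, called no overlap here, was found for 3633 genes higher in the CD133 sort (31.3%) and 1776 higher in the ALDH sort (15.3%). Counts of list members are to be read against these shares.

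Of the summed squared differences among the 4 arrays, taken over genes above the floor, 44.8% lay along the sort. The direction of marker status (both positive against both negative arrays) held 24.5%. The crossed direction (CD133+ and ALDH- against CD133- and ALDH+) held 30.7%. The sort difference can also be taken once within the positive fractions (CD133+ minus ALDH+) and once within the negative ones (CD133- minus ALDH-), which share no array. Of the 11597 genes, 7159 (61.7%) had the same sign in both, and Pearson's r across these genes was 0.17 (Spearman's rho 0.27). Genes are not independent replicates and the arrays were normalised together, so this is a description. At 1.5-fold, 626 genes were higher in CD133+ than ALDH+ and 1026 higher in CD133- than ALDH-. Of these, 145 were on both lists, 23.2% of the first and 14.1% of the second. In the ALDH sort's favour the lists held 225 and 644 genes with 24 shared, 10.7% and 3.73% of them. The negative fractions thus held more genes past 1.5-fold in both directions, and 105 genes passed it with opposite signs.

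**Figure D1:**
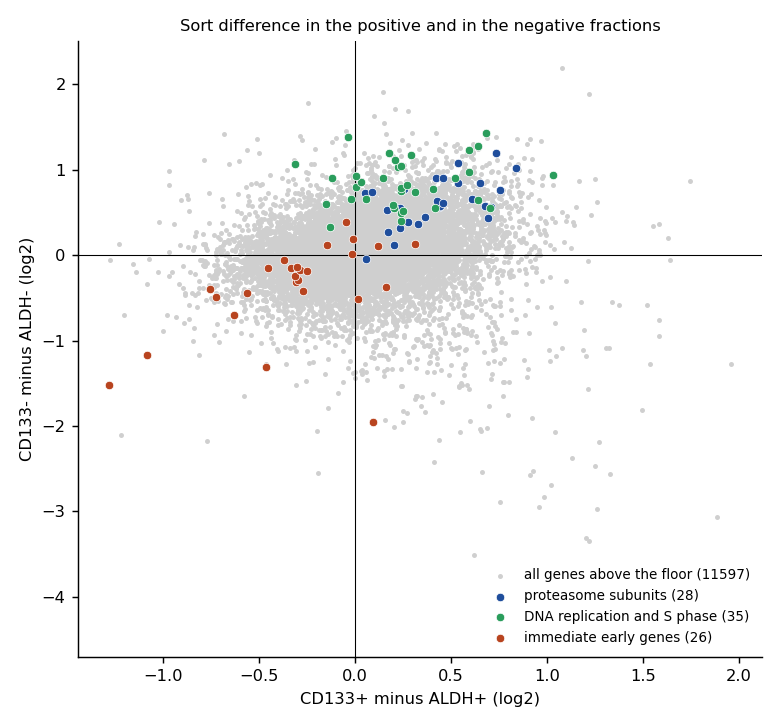
Sort difference of each gene above the floor within the positive fractions (x axis, CD133+ minus ALDH+, log2) and within the negative fractions (y axis, CD133- minus ALDH-, log2), 1 point per gene. Proteasome subunits lie in the upper right, with 1 of 28 just below 0 on the y axis, S phase genes lie high on the y axis, and most immediate early genes lie in the lower left.

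The difference moved with the level of a gene, and this touches every list made of bright genes. With all genes put into 10 equal classes by mean level, the median difference ran from -0.10 in the dimmest class to 0.16 in the brightest. The CD133-sort arrays had the wider spread of values, with SDs of 2.08 and 2.10 against 2.01 and 2.03. After cyclic loess, which removes such a trend array against array, the classes lay between -0.02 and 0.01, and the shares of genes without overlap were 23.5% and 21.6% in place of 31.3% and 15.3%. Where the median of a list is given below, its value after loess is given as well. What made the spread of values differ was not tested.

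**Figure D2:**
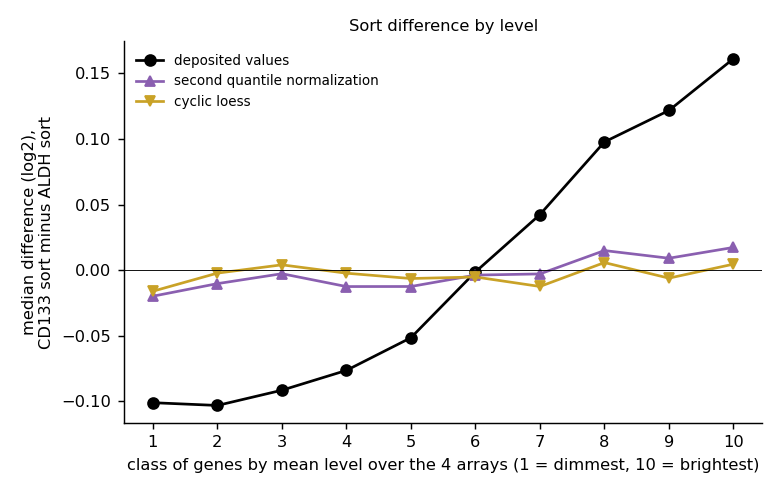
Median difference between the sorts (y axis, log2, CD133 sort minus ALDH sort) for 10 equal classes of genes ordered by mean level (x axis), for the deposited values and for both further normalizations. The deposited values climb from -0.10 to 0.16, and both other lines stay within 0.02 of 0.

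Immediate early genes stood higher in the ALDH sort. FOSB, a subunit of the AP-1 transcription factor, had log2 values of 5.72 in CD133+, 5.43 in CD133-, 7.004 in ALDH+ and 6.95 in ALDH-. Both ALDH-sort arrays lay far above both CD133-sort arrays and close to each other. The difference was -1.40 (SE 0.19), 2.64-fold, with a limma adjusted p of 0.469. ATF3, a stress-induced factor of the same leucine zipper class, read 4.54 and 4.55 in the CD133 sort (positive, then negative) and 5.62 and 5.72 in the ALDH sort. Its arrays fell into 2 tight pairs, the lower pair below the floor; the difference was -1.13 (SE 0.18), or -0.69 when dimmer values were set to the floor. FOS, the founding AP-1 partner, read 6.80 and 6.12 against 7.26 and 7.42, again with no overlap (-0.88, SE 0.24, and -0.55 without the CD133- array).

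The promoters of FOSB and FOS are shown because both carry, in the 250 bases before the RefSeq start, the core of a cAMP response element, the element through which CREB acts on early genes. Both lie on the plus strand of GRCh38.p14, at chr19:45467746-45467995 and chr14:75278578-75278827. Capitals mark every match of the motifs searched. These are the core of the cAMP response element, whose letters are TGACGT, the TATA box, spelled TATAAA, and the site of E2F factors, spelled TTTGGCG.
FOSB: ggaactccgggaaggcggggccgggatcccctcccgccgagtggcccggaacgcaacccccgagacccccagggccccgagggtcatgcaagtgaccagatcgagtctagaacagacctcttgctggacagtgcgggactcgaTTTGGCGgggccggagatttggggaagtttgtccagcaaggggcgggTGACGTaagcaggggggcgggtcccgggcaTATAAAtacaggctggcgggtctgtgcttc
FOS: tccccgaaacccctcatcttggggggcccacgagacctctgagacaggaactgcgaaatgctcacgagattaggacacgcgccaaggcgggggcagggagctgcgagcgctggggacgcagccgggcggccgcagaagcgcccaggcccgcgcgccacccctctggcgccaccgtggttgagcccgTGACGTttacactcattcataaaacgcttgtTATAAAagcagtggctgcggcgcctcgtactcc
Of the 28 measured immediate early genes, 19 had a promoter in the table, and the element core was found in 6 of them (31.6%) and the TATA box in 7 (36.8%). Over the promoters of all genes above the floor those shares were 10.2% and 5.66%. A match is only a description of the letters.

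Most of the list lay on the same side. Of 28 measured members, 24 were higher in the ALDH sort and 4 in the CD133 sort, with a median of -0.26 against -0.01 over all genes. Of the 26 above the floor, 14 did not overlap in the ALDH sort's favour and 0 in the CD133 sort's, where the background was 15.3% and 31.3%. Limma called 0 members after adjustment, and 8 had an unadjusted p under 0.05. The median was -0.30 in the positive and -0.27 in the negative fractions, and -0.36 after loess. DUSP1, a phosphatase that switches off MAP kinases, read 9.21 and 8.997 in the CD133 sort against 9.84 and 9.70 in the ALDH sort. NR4A1, an orphan nuclear receptor, differed by -0.61, GADD45B by -0.58 and JUN, the main AP-1 partner of FOS, by -0.50, each without overlap. EGR1 differed by -0.24 and KLF4 by -0.93, but both overlapped, KLF4 reading 6.12 and 5.14 against 6.03 and 7.10. The highest members in the CD133 sort were MYC (0.22) and MCL1 (0.17), so the list did not move as one block.

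PCK1, which commits carbon to gluconeogenesis and is induced by cAMP signals in liver, was also higher in the ALDH sort. It read 4.55 in CD133+, 4.03 in CD133-, 5.32 in ALDH+ and 6.20 in ALDH-. Both ALDH-sort arrays were above both CD133-sort arrays, which lay below the floor: the difference was -1.47 (SE 0.30), and -0.78 when those were set to the floor. PPARGC1A, the coactivator that drives gluconeogenic genes, read 4.19 and 4.29 against 5.03 and 5.15, a gap of the same kind near the floor (-0.85, and -0.10 when dimmer values were set to the floor). LIF, a cytokine of the interleukin-6 family, read 5.25 and 5.77 against 6.25 and 6.66. It did not overlap between the sorts (-0.95, SE 0.24), and neither did METRNL, a secreted protein (-0.99, SE 0.19). MAP1LC3B, the autophagosome protein LC3B, was among the 14 genes with a gap, at 7.20 and 7.26 against 8.07 and 8.01; it and the other genes named from that count only were chosen after their values were seen.

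In a further group on the ALDH side 1 or 2 arrays carried most of the difference. FXYD3, a regulator of the sodium pump, read 7.33 and 6.26 in the CD133 sort against 7.53 and 8.81 in the ALDH sort. SLC51A, a subunit of the bile acid exporter of the ileum, read 5.79 and 5.77 against 5.99 and 7.83, and AQP10, a glycerol channel of the small intestine, 6.999 and 6.90 against 7.09 and 8.51. In SLC51A and AQP10 the ALDH- array stood apart and ALDH+ lay just above the CD133 sort, while in FXYD3 ALDH- was the highest and CD133- the lowest array. The differences of -1.37, -1.13 and -0.85 became -0.73, -0.21 and -0.14 without the ALDH- array, and that of FXYD3 was -0.83 without CD133-. The remaining coding genes named in this direction were LGALS14 (-1.12), UACA (-0.91), TCEAL9 (-0.86), TOPAZ1 (-0.84) and DNM1 (-0.84), of which LGALS14 and UACA also had their highest value in ALDH- (-0.58 and -0.42 without it).

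**Figure D3:**
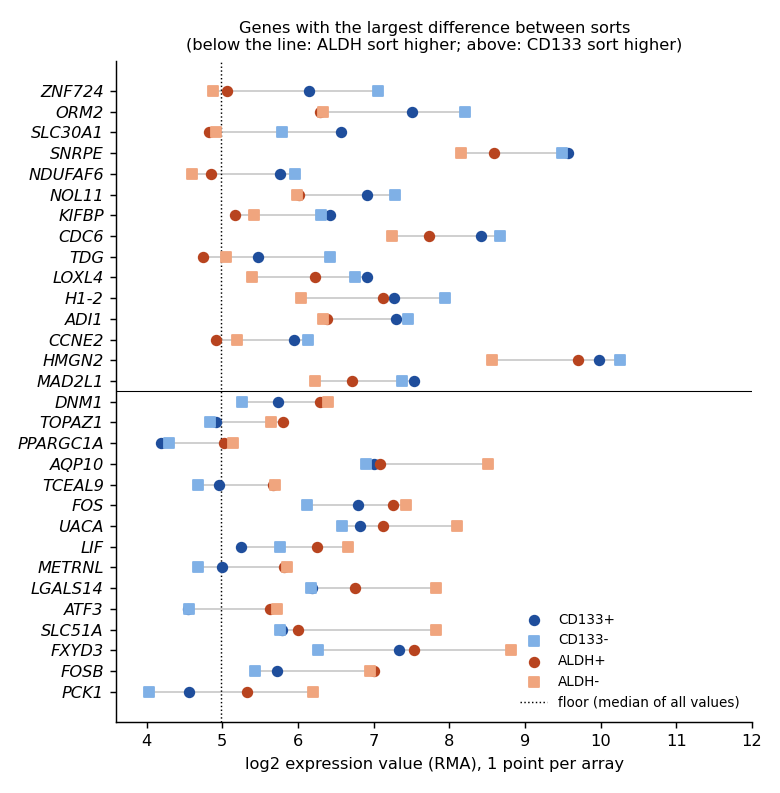
Log2 expression values (x axis) of the 15 protein-coding genes per direction that differed most without overlap (rows), 1 point per array, with the floor as a dotted line. FOSB and ATF3 form 2 separate pairs of points, while SLC51A and AQP10 have 1 high point, the ALDH- array.

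Proteasome genes were higher in the CD133 sort almost throughout. The proteasome degrades ubiquitin-tagged proteins, in a core barrel of alpha and beta subunits capped by a regulatory particle of ATPases and other subunits. PSMA3, a core alpha subunit, read 8.47 in CD133+, 8.54 in CD133-, 7.73 in ALDH+ and 7.35 in ALDH-. Both CD133-sort arrays lay clear above both ALDH-sort arrays (0.96, SE 0.20, 1.95-fold, limma adjusted p 0.469). PSMA2, another alpha subunit, read 8.14 and 8.30 against 7.30 and 7.28 (0.93), and PSMC1, an ATPase of the cap, 8.67 and 8.58 against 7.91 and 7.82 (0.76). PSMA6 read 9.61 and 9.49 against 9.07 and 8.42 (0.81), also without overlap but with ALDH- lower than ALDH+.

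All 28 measured subunits had a positive difference, 27 of them without overlap, where 31.3% of genes did so. The median was 0.52, against 0.06 over all genes above the floor. It was 0.43 in the positive and 0.60 in the negative fractions, and leaving out any 1 array gave 0.44 to 0.60. After loess the median was 0.38, with 27 of 28 higher and 23 without overlap. Limma called 0 members, and 17 had an unadjusted p under 0.05. Among the smaller values were those of PSMB6 (0.01, with overlapping arrays) and PSMB5 (0.16), both catalytic beta subunits. PSMA3 lies in GRCh38.p14 with its promoter on the plus strand at chr14:58244593-58244842, shown with matches to the CCAAT box (CCAAT, or ATTGG on the other strand) in capitals.
PSMA3: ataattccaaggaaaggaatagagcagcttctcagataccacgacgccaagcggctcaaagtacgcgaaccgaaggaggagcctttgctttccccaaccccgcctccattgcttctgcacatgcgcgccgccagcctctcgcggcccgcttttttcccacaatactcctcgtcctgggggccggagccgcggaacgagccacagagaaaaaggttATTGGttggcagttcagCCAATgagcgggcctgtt
A CCAAT box was found in 11 of the 23 proteasome promoters in the table (47.8%) and in 34.6% of promoters of genes above the floor.

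Chaperone genes followed in the same direction with smaller differences. Of 20 measured genes, 18 were higher in the CD133 sort, with a median of 0.28 (0.18 after loess), and of the 18 above the floor 14 did not overlap in that direction and 1, BAG3, in the other (-0.17); after loess these counts were 9 and 2. DNAJA1, an HSP70 cochaperone, read 7.53 and 7.66 against 6.94 and 6.81 (0.72, SE 0.18). CCT2, a subunit of the cytosolic chaperonin, read 9.64 and 9.83 against 9.18 and 9.07 (0.61). Both pairs were separate. HSPB1, a classical heat-inducible gene, differed by 0.01 and HSF1, the heat shock factor, by 0.02.

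**Figure D4:**
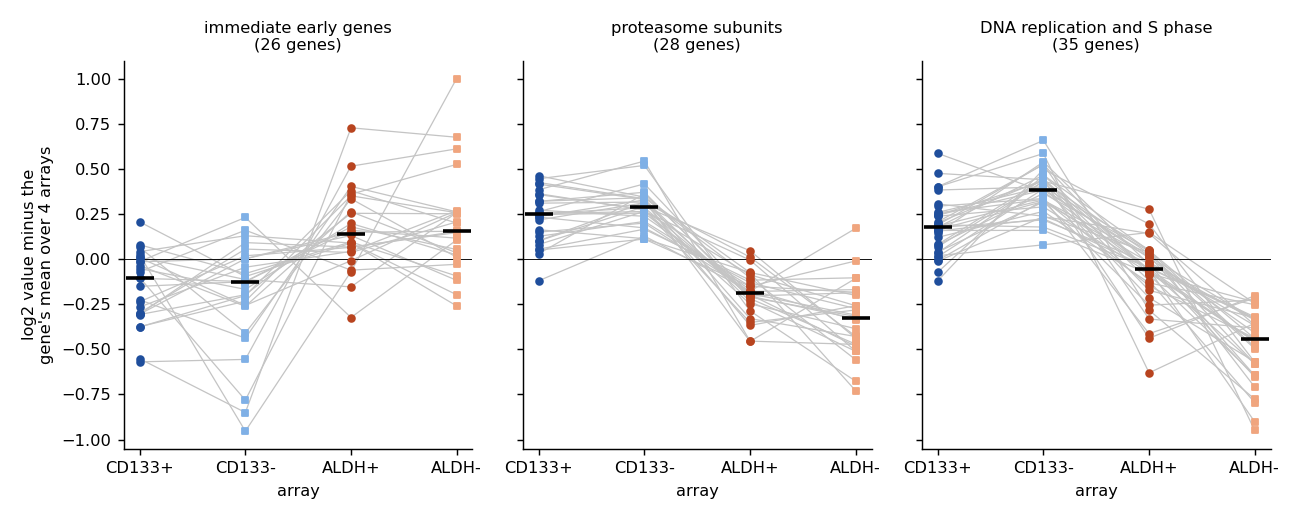
Log2 value of each member above the floor minus its mean over the 4 arrays (y axis) on each array (x axis), for immediate early genes, proteasome subunits and S phase genes; grey lines join a gene's values and black bars are medians. Medians of the immediate early genes lie below 0 on both CD133-sort arrays and above 0 on both ALDH-sort arrays, with the opposite order in the other panels.

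Genes of DNA replication were likewise higher in the CD133 sort in every measured member. CDC6, which loads the replicative helicase at origins, read 8.41 in CD133+, 8.67 in CD133-, 7.73 in ALDH+ and 7.24 in ALDH-. The sorts did not overlap, CD133- being highest and ALDH- lowest (1.06, SE 0.22, 2.08-fold, limma adjusted p 0.469). CCNE2, the cyclin E that drives entry into S phase, read 5.95 and 6.14 against 4.92 and 5.20 (0.99), and PCNA, the sliding clamp, 8.62 and 8.41 against 7.98 and 7.14 (0.96). MCM4, a helicase subunit, read 8.95 and 8.91 against 8.35 and 7.68 (0.91). None of them overlapped, and in PCNA and MCM4 the ALDH- array was the lowest by a wide margin.

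All 36 measured members had a positive difference, with a median of 0.52, and of the 35 above the floor 29 did not overlap. Limma called 0, and 21 had an unadjusted p under 0.05. The median was 0.24 in the positive and 0.81 in the negative fractions, and without the ALDH- array it was 0.32. After loess it was 0.41, with 36 of 36 higher and 25 without overlap. The smallest values were those of POLD1 (0.10) and TK1 (0.22), both with overlap. CDC6 has its promoter on the plus strand of GRCh38.p14 at chr17:40287629-40287878. It is shown because it holds both motifs most frequent in this list, the E2F site TTTGGCG and the CCAAT box, in capitals.
CDC6: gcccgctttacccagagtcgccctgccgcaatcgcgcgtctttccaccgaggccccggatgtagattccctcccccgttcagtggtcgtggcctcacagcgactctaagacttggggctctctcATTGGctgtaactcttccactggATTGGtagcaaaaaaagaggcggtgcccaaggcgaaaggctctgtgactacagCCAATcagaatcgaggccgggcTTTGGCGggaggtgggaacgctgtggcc
The E2F site was found in 8 of 33 replication promoters (24.2%), against 2.46% of promoters of genes above the floor, and the CCAAT box in 17 (51.5%) against 34.6%. E2F factors are the textbook regulators of these genes, and such a share is a property of the list and not of the sort.

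Mitotic genes had smaller differences, in both directions. Of 33 measured, 25 were higher in the CD133 sort and 8 lower, with a median of 0.19 (0.09 after loess). It was -0.02 in the positive fractions and 0.40 in the negative ones, and -0.03 without the ALDH- array. MAD2L1, of the spindle checkpoint, read 7.53 and 7.38 against 6.71 and 6.23 (0.98), and CDK1, the mitotic kinase, 6.88 and 6.74 against 6.33 and 5.66 (0.81). CENPF, a kinetochore protein that peaks late in the cycle, read 5.91 and 5.97 against 6.73 and 6.58. It was 1 of the 14 genes with a gap in the ALDH sort's favour (-0.72, SE 0.18). MKI67 (-0.03), PLK1 (-0.07) and CDC20 (-0.06) were close to 0. Replication-dependent histones, made in S phase, had 39 of 48 members higher with a median of 0.18 (0.17 after loess). Their median was -0.04 in the positive fractions and 0.46 in the negative, and the linker histone H1-2 read 7.27 and 7.94 against 7.12 and 6.04 (1.03). Without the ALDH- array the histone median was 0.04 and H1-2 was at 0.49. Histone genes are near-identical copies, so probes may read more than 1 of them.

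RNA processing and export formed a further block on the CD133 side. Ribosome biogenesis had 31 of 33 members higher (median 0.40, 0.27 after loess), 24 without overlap in that direction and 0 in the other. WDR12, of the PeBoW complex that matures the large subunit, read 8.003 and 8.05 against 7.28 and 7.43 (0.67). POLR1B, the second largest subunit of RNA polymerase I, read 6.98 and 7.20 against 6.39 and 6.45 (0.67), with the pairs again separate. NOL11, a pre-ribosomal RNA processing factor outside that list, read 6.91 and 7.28 against 6.01 and 5.98 (1.10, SE 0.20). The abundant nucleolar proteins FBL (0.14) and NPM1 (-0.13) overlapped.

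Nuclear pore and transport genes were higher in 20 of 20 (median 0.37, 0.27 after loess), 17 without overlap. NUP133, of the pore's scaffold, read 6.998 and 7.32 against 6.50 and 6.26 (0.78), and RAN, the transport GTPase, 9.97 and 10.10 against 9.37 and 9.44 (0.63). Splicing factors were higher in 26 of 32 (median 0.33, 0.18 after loess), 22 without overlap and 0 in the other direction (16 and 2 after loess). Among them were SRSF7 (0.73), LUC7L3 (0.68) and HNRNPD (0.67), with TRA2A (0.65) less certain because its other probe gave -0.20. SNRPE, of the Sm ring that assembles on spliceosomal RNAs, read 9.57 and 9.49 against 8.60 and 8.16 (1.15, SE 0.20), and its other probe gave 0.94. Its partner SNRPG and the related LSM3, LSM5 and LSM6 were also among the 84 genes with a gap (0.69, 0.69, 0.97 and 0.72). Limma called 0 members of any of these lists. Cytosolic ribosomal proteins, by contrast, had a median of 0.14 that became -0.00 after loess, with 21 members without overlap in the CD133 sort's favour and 10 in the ALDH sort's, but 11 and 19 after loess. The median was 0.07 without the CD133- array.

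**Figure D5:**
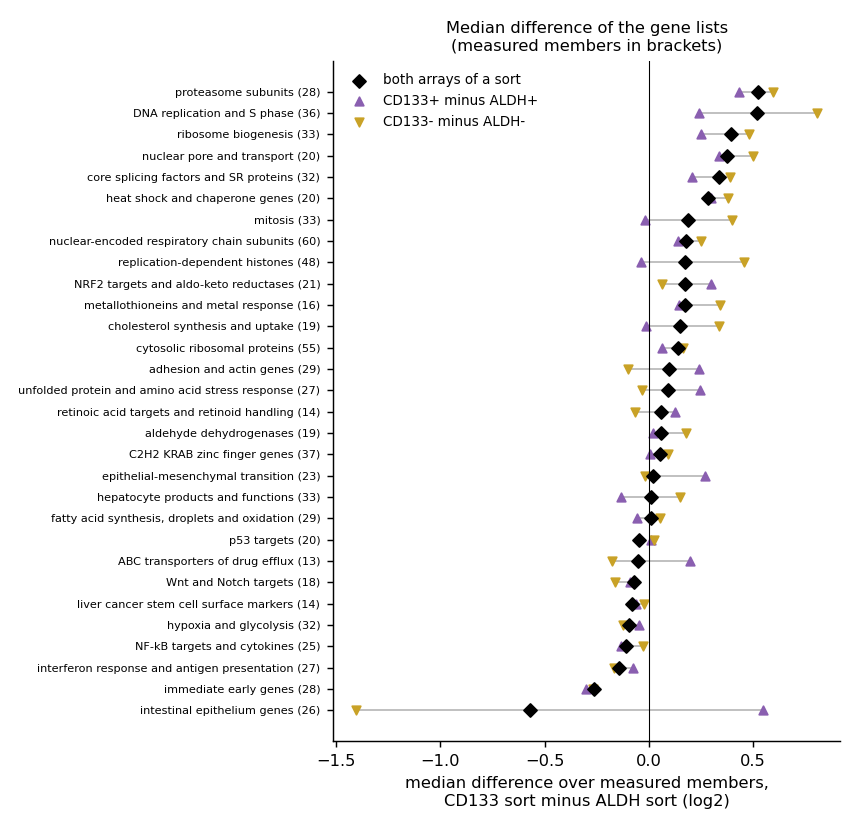
Median difference between the sorts (x axis, log2) over the measured members of each gene list (rows, number of members in brackets), for both arrays of a sort (diamonds) and within the positive and the negative fractions (triangles). Proteasome and S phase lists are farthest right at 0.52, immediate early genes lie at -0.26 with all markers close together, and intestinal genes spread from -1.40 to 0.55.

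Small RNAs lay on either side by class. The spliceosomal snRNAs themselves were higher in the ALDH sort: of 11 above the floor, 10 were, each without overlap. The median was -0.46 (-0.45 after loess, with 10 above the floor). In RNVU1-15, RNVU1-6, RNU4ATAC and RNVU1-19 both CD133-sort arrays lay below the floor. Their differences were -0.35, -0.16, -0.18 and -0.13 when dimmer values were set to the floor. RNU12, of the minor spliceosome, read 5.10 and 5.23 in the CD133 sort against 6.19 and 5.57 in the ALDH sort (-0.71, SE 0.23). RNU5E-1 read 9.96 and 10.02 against 10.33 and 10.60 (-0.47), and RNU2-1 was the exception at 0.18 with overlap. Several snRNAs have near-identical copies, so their probes may not be separate readings. Box H/ACA snoRNAs, which guide pseudouridylation, had a median of -0.14 over 39 genes (24 lower, 15 higher; -0.20 after loess). SNORA80E had the largest difference of all genes named in the ALDH sort's favour, at 6.96 and 6.79 against 8.18 and 8.90, with no overlap (-1.66, SE 0.25, 3.17-fold, limma adjusted p 0.469).

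Box C/D snoRNAs, which guide ribose methylation, leaned the other way. Of 47 above the floor, 34 were higher in the CD133 sort, where 58% of all genes were, with a median of 0.29 (0.20 after loess). In that direction 20 did not overlap, against 7 in the other, where the background was 31.3% and 15.3%. After loess these counts were 18 and 10, where the background was 23.5% and 21.6%. SNORD44 read 7.97 and 8.38 against 7.12 and 7.02 (1.10, SE 0.20), and SNORD12C 6.66 and 6.80 against 5.49 and 5.93 (1.02). SNORD44, SNORD78, SNORD79 and SNORD81, each without overlap, are cut from introns of one host, GAS5. SNORD75 and SNORD74 of the same host overlapped, at 0.41 and -0.15. GAS5 itself was not among the genes compared, so its snoRNAs do not enter the host comparison below. SNORD14E went against its class, at 4.69 and 4.98 against 5.89 and 5.69 (-0.95). Over the 52 snoRNAs above the floor with a measured host gene, the snoRNA and its host had the same sign in 32, with Pearson's r of -0.19 across them. Probes of miRNA genes, which read precursors, had 29 of 33 lower values in the CD133 sort (median -0.19, the same after loess), and long non-coding RNAs 127 of 183 (median -0.11, -0.12 after loess).

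Liver genes lay on both sides. The 33 measured hepatocyte genes had a median of 0.01, which was -0.10 after loess, with 17 higher and 16 lower. Leaving out the CD133- array made it -0.19 and leaving out the CD133+ array 0.24, so its sign depended on the array left out. After loess 11 members were higher and 22 lower. Of the 27 above the floor, 6 did not overlap in the CD133 sort's favour and 3 in the ALDH sort's. After loess these counts were 4 and 8. ALB, the defining product of hepatocytes, read 11.33 and 11.71 against 11.35 and 10.93, and AFP, the fetal form kept by hepatoma cells, 11.77 and 11.86 against 11.63 and 11.56. Both lay far above the floor on every array, and ALB overlapped between the sorts. ORM2, an acute-phase plasma protein, read 7.51 and 8.21 against 6.29 and 6.33, with no overlap (1.55, SE 0.24, 2.93-fold). Its near-identical paralog ORM1 differed by 0.63 with overlap, so the probes of the pair may read both. The fibrinogen chains FGG (0.80), FGB (0.50) and FGA (0.40) and the plasma glycoprotein APOH (0.85) were also higher in the CD133 sort without overlap, while APOA1 was lower (-0.56). For APOH the difference was 0.15 in the positive and 1.55 in the negative fractions, and 0.32 without the CD133- array.

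Stress and metal genes showed single members rather than whole lists. SLC30A1, the zinc exporter of the plasma membrane and a target of the metal sensor MTF1, read 6.57 and 5.79 in the CD133 sort against 4.83 and 4.92 in the ALDH sort. The pairs did not overlap and the ALDH sort lay at or below the floor (1.31, SE 0.26). Of 16 genes of metal handling, 11 were higher and 5 lower (median 0.17, 0.03 after loess and 0.32 without the CD133+ array); MT1M differed by 0.82 and MT1G by 0.55, against -0.25 for MT1X. Metallothionein genes are close paralogs whose probes may share signal. In the amino acid and unfolded protein response, ASNS, asparagine synthetase, read 7.69 and 7.50 against 6.77 and 6.78 (0.82), whereas DDIT3, the factor CHOP, read 5.75 and 6.32 against 6.47 and 7.12 (-0.76). Both lie downstream of ATF4, which differed by -0.06. The list's median of 0.09 was -0.00 after loess, 0.01 without the ALDH+ array and 0.22 without the ALDH- array.

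RNA of both subunits of the first enzyme of glutathione synthesis was higher in the CD133 sort, each without overlap. GCLC was at 0.62 (0.31 without the ALDH+ array) and GCLM at 0.56. The NRF2 list they belong to had 14 of 21 members higher and a median of 0.17 (0.04 after loess, 0.08 without the CD133+ array), and HMOX1 was at -0.06. Hypoxia and glycolysis genes leaned to the ALDH sort, 22 of 32 (median -0.09, -0.20 after loess). The median was -0.04 without ALDH- or without CD133+, and -0.18 without ALDH+. NDRG1 read 9.33 and 8.96 against 9.36 and 9.89 (-0.48, and -0.21 without the ALDH- array). ANKRD37 differed by -0.41, but by -0.04 when dimmer values were set to the floor. Cholesterol genes leaned to the CD133 sort, 14 of 19, led by IDI1 (0.59), with a median of 0.15 that was 0.06 after loess and -0.00 without the CD133- array. Respiratory chain subunits were higher in 42 of 60 (median 0.18), but the median was 0.02 after loess. COX7B, its largest member, read 7.25 and 7.44 against 5.70 and 7.10 (0.94), so 1 array, ALDH+, set it apart.

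The gene of the sorted antigen overlapped between the sorts. PROM1 read 9.0 in CD133+, 5.32 in CD133-, 7.11 in ALDH+ and 8.39 in ALDH-. Both ALDH-sort arrays lay between the CD133-sort arrays, and the difference was -0.59 (SE 0.96). It was 1.25 without the CD133- array and 0.05 without the ALDH- array. ALDH1A1, the isoform most often tied to the ALDH assay, was bright on all arrays, at 11.47 and 11.47 against 11.14 and 11.10. The CD133 sort was higher without overlap, by 0.35 (SE 0.17), and by 0.21 after loess. ALDH2, the mitochondrial isoform, read 9.45, 9.44, 9.44 and 9.34 (0.06, and -0.11 after loess).

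Of the 19 aldehyde dehydrogenases, 11 were higher in the CD133 sort and 8 lower, with a median of 0.06 that was -0.01 after loess. Of the 14 above the floor, 7 did not overlap in the CD133 sort's favour and 1, ALDH3A1, in the ALDH sort's. The background was 31.3% and 15.3%. After loess these counts were 3 and 3 (21.4% each), close to the background of 23.5% and 21.6%. ALDH5A1 (0.45), ALDH7A1 (0.43), ALDH3A2 (0.32) and ALDH9A1 (0.26) were among the 7 in the deposited values. ALDH1A2 (-0.52) and ALDH3B2 (-0.49) were below the floor on all arrays. Both drug exporters named, ABCB1 (-0.48) and ABCC2 (-0.37), overlapped between sorts.

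Intestinal epithelial genes had the median farthest from 0 of all lists, at -0.57 (-0.67 after loess), with 25 of 26 lower in the CD133 sort. Of the 23 above the floor, 6 did not overlap in the ALDH sort's favour and 0 in the CD133 sort's. The background was 15.3% and 31.3%. After loess these counts were 7 (30.4%) and 0, where the background was 21.6% and 23.5%. The median of the 26 members was 0.55 within the positive fractions and -1.40 within the negative ones. MUC13, a transmembrane mucin, read 9.38 in CD133+, 6.85 in CD133-, 8.76 in ALDH+ and 10.36 in ALDH-. CD133- was the lowest and ALDH- the highest array, and the list's median was 0.04 without the former and -0.02 without the latter.

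Markers of other cell types were mostly below the floor. Of 13 leukocyte genes 5 were above the floor, of 12 fibroblast genes 6, of 11 endothelial genes 4 and of 2 red cell genes 0. Their levels summed on the linear scale ran from 561 to 671 (CD133 sort) and from 550 to 652 (ALDH sort) for leukocytes. For fibroblasts they were 349 to 369 and 372 to 400, for endothelium 190 to 222 and 243 to 245, and for red cells 33.8 to 37.4 and 39.3 to 42.0. The defining genes PTPRC (2.45 to 2.64) and HBB (3.59 to 3.98) were below the floor on all arrays. Other members were above it on all arrays. LYZ read 7.52 and 8.22 against 7.77 and 6.44 (0.77), and CD68 7.15 and 7.08 against 7.10 and 7.87 (-0.37), both with overlap. The fibroblast genes COL1A1 (-0.32) and PDGFRB (0.24) did not overlap between the sorts. CDH5, an endothelial cadherin, read 4.23 and 4.09 against 4.70 and 5.36, so only ALDH- reached the floor. Its difference was -0.87, or -0.19 when dimmer values were set to the floor. VWF (-0.07) and KDR (-0.18) stayed below the floor. The part of such RNA in the differences was not tested.

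The remaining lists had medians within 0.15 of 0: interferon response (-0.14, -0.09 after loess), NF-kB targets and cytokines (-0.11, -0.15 after loess), adhesion and actin genes (0.10, -0.04 after loess), stem cell surface markers (-0.08, -0.11 after loess), Wnt and Notch targets (-0.07, -0.15 after loess), retinoic acid genes (0.06, -0.03 after loess), KRAB zinc finger genes (0.05, 0.09 after loess), ABC transporters (-0.05, -0.06 after loess), p53 targets (-0.05, -0.04 after loess and 0.01 after centring), epithelial-mesenchymal transition (0.02, also after loess) and fatty acid metabolism (0.01, -0.13 after loess). With 1 array left out, the medians of the interferon, stem cell, Wnt and Notch and retinoic acid lists kept their sign, and those of the others crossed 0, all within -0.23 and 0.20. Single members passed 1.5-fold without overlap. NFKB1, the NF-kB subunit p105, read 6.44 and 6.81 against 5.57 and 6.08 (0.80, 0.75 after loess). TIGAR, a p53 target, read 5.16 and 5.65 against 4.59 and 4.68 (0.77, 0.83 after loess). Its ALDH-sort values lay below the floor, and the difference was 0.42 when dimmer values were set to the floor. CD24, a surface marker, read 10.26 and 10.50 against 9.83 and 9.73 (0.60), and its difference after loess was 0.44, under 1.5-fold. ZNF724, a zinc finger gene outside that list, had the largest difference in the CD133 sort's favour, at 6.15 and 7.06 against 5.07 and 4.88 (1.63, SE 0.29, 3.10-fold), without overlap. Other coding genes named by size on that side were NDUFAF6 (1.13), which helps assemble complex I, KIFBP (1.07), the DNA glycosylase TDG (1.06), LOXL4 (1.03), ADI1 of methionine salvage (1.03) and the nucleosome-binding HMGN2 (0.98). Without the ALDH- array LOXL4 was at 0.61 and HMGN2 at 0.42, and TDG was at 0.58 without the CD133- array.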

How the data were processed

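Total RNA of 4 sorted Huh7 fractions was labelled with biotin for 1 array each, per the labels. The authors summarised each probe to a log2 value with RMA, robust multi-array averaging, as the submitters' processing notes name it. That these deposited values are log2 follows from their range of 0.556 to 13.5. Software, version and genome build of that step are not given in the sources used here. RMA draws arrays to a common distribution, so a shift of all genes cannot be seen, and it compresses differences of dim probes.

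Of 28869 probes, 19310 had 1 symbol in the platform annotation, 1752 had several and 7807 were not listed or had no symbol. Of those with 1 symbol, 19279 were matched to RefSeq genes. For a gene with several probes (685 genes) the probe of highest mean was used. Sorts were compared with limma (lmFit and eBayes; 2 residual degrees of freedom, prior 6.49) on all 18377 genes, two-sided, with Benjamini-Hochberg adjustment at 0.05. The fit was tested on simulated data. Counts of genes by size used the floor at the median of all values.

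The comparison, the lists, markers and rules were chosen with earlier results of these data known, and a list the data had already shown is no independent evidence of its direction. Named genes were the 15 coding and 5 other genes per direction that differed most, among genes whose sorts did not overlap and whose brighter sort had both arrays at or above the floor, PROM1, the aldehyde dehydrogenases, and from each list at most 4 members past 1.5-fold without overlap, otherwise the 2 largest. Further list members, ORM1, AFP and genes with a gap outside these rules were chosen after their values were seen.

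Promoter letters are RefSeq's on GRCh38.p14, taken as the 250 bases before the first start listed, and the table is not complete. Motifs were searched on both strands. Alternatives were other probe rules, scalings, floors, thresholds, blocks and limma settings, loess with a span of 0.4, and leaving out each array. The software was limma 3.58.1 under R 4.3.3, and Python 3.11.15 with matplotlib 3.10.9.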

Additional observations from a re-analysis of the deposited data

Results flagged for a closer look

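In 7 results the positive and the negative fractions gave opposite signs between the sorts by at least 1.2-fold each; these differences were not tested. PROM1 was higher in CD133+ than in ALDH+ by 1.89 and lower in CD133- than in ALDH- (-3.07). ABCB1 gave 0.56 and -1.52, ABCC2 0.71 and -1.45, ANKRD1, a target of the Hippo pathway, 1.59 and -0.76, and ALDH1L2 0.39 and -0.84, each first in the positive and then in the negative fractions. ALDH8A1 gave -0.46 and 0.28. ALDH8A1 lay below the floor on all arrays and ALDH1L2 on all but ALDH-, and values there have no order, so no direction can be read for either. The median of the intestinal epithelium genes was 0.55 and -1.40. For PROM1, ABCB1, ABCC2, ANKRD1 and the intestinal list the mean over both fractions describes neither.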

How the results depend on the processing

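Limma called 0 genes in either direction under every setting, with a lowest adjusted p of 0.0781 (trend and robust) and 0.469 in the main setting. At an unadjusted p it listed 1091 genes higher in the CD133 sort, and 313 to 1267 with 1 array left out; the range for the ALDH sort was 214 to 1020 around 565. Genes at 2-fold numbered 15 for the CD133 sort. They became 27 after centring, 8 after quantile normalization, 8 after loess, 435 at 1.5-fold, 62 in the positive and 141 in the negative fractions alone, and 24 to 67 with 1 array left out (24 without CD133-, 44 without ALDH-, 64 without CD133+, 67 without ALDH+). For the ALDH sort, 12 became 152 at 1.5-fold, 216 in the negative fractions alone and 10 to 112 with 1 array left out (10 without ALDH-, 15 without CD133-, 69 without CD133+, 112 without ALDH+). These settings compare fewer arrays. Genes with a gap went from 84 to 130 after centring, 54 after loess, 52 with a floor at the 75th percentile and 2 at a 2-fold gap. For the ALDH sort they went from 14 to 24 with no floor, 6 with the higher floor and 3 at a 2-fold gap. With that floor the shares of the squared differences were 50.7% along the sort and 18.8% along marker status.

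Of 34 lists, 26 kept the sign of their median under every scaling and probe rule, and 17 under all settings. Named genes near 0 changed sign. ALDH1B1 was -0.0098 after loess, ALDH8A1 0.0058 after loess, ALDH2 -0.073 after quantile normalization and -0.11 after loess, and ALDH18A1 -0.096 and -0.11. With 1 array left out, these ranges crossed 0: PROM1 -2.43 to 1.25, ALDH1A3 -0.20 to 0.25, ALDH1B1 -0.038 to 0.28, ALDH1L1 -0.42 to 0.14, ALDH1L2 -0.55 to 0.097, ALDH3B1 -0.32 to 0.11, ALDH4A1 -0.018 to 0.53, ALDH6A1 -0.36 to 0.046, ALDH8A1 -0.32 to 0.14, ALDH18A1 -0.12 to 0.24, ABCB1 -1.02 to 0.056, ABCC2 -1.10 to 0.36, OAS1 -0.72 to 0.017, ANKRD1 -0.26 to 1.09, CD68 -0.75 to 0.018. Each array is its own fraction, so leaving one out also unbalances marker status. The labels give no replicate numbers to pair by. Pairing the arrays by marker status, as a block, left limma's calls at 0 (lowest adjusted p 0.154). Depth is not recorded for arrays, and values under the floor have no order.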

Other observations

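Of the 9559 probes without a single gene symbol, 2860 were above the floor, and 27 of these had a gap of 1.5-fold in the CD133 sort's favour and 6 in the ALDH sort's. They have no gene name here.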
